A study of Mus musculus with 7 samples.

Results

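*Cd36* and 9 genes that act around it in fatty acid handling were followed in 7 RNA libraries of mouse muscle stem cells (MuSCs). The 10 genes were taken by symbol from the 56748 genes of the count files: *Cd36*, *Fabp3*, *Fabp4*, *Fabp5*, *Lpl*, *Plin2*, *Acsl1*, *Cpt1a*, *Cpt1b* and *Ppargc1a*. *Cd36* was chosen by its p, the smallest of all genes in the comparison of genotypes, so its values are given as a description without a test. For its 9 partners the question was whether they followed *Cd36*.

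The comparison had 3 WT libraries and 4 libraries of homozygous *Jag2sm* mice. JAG2 is a ligand of NOTCH receptors. The *Jag2sm* allele is a naturally occurring hypomorphic variant carried in the germ line, so it is not limited to MuSCs, although the sample labels write the genotype as a loss of *Jag2*. MuSCs of both genotypes came from the hind limbs of adult mice, were sorted on magnetic columns for Integrin α7 after removal of cells with CD31, CD45 or Sca1, and were kept in growth medium with serum and bFGF. The growth protocol in the labels is the source for the culture, and how long the sequenced cells were cultured is not given in the sources used here. Nothing in the labels ties each library to its own mouse, so p-values here measure the spread between these RNA samples.

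Muscle and other tissues take up long-chain fatty acids with the help of CD36, a membrane glycoprotein, after lipoprotein lipase (LPL) has released them from triglyceride in lipoproteins. Inside the cell, fatty acid binding proteins carry them, ACSL1 joins them to coenzyme A, and the acyl-CoA is either stored in lipid droplets, which PLIN2 coats, or passed through carnitine palmitoyltransferase 1 into mitochondria for oxidation. PGC-1α, the product of *Ppargc1a*, is a coactivator of the PPAR and ERR receptors that switch many of these genes on.

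The libraries had 187834 to 1937581 counts on genes, and WT replicate 1 was the smallest. That library also had 45.1% of its aligned reads outside genes, where the others had 20.8% to 25.7%. Reads that did not align made up 2.44% to 3.24% of the reads in WT libraries and 3.07% in *Jag2sm* replicate 3, but 46.0% to 50.8% in *Jag2sm* replicates 1, 2 and 4. *Jag2sm* replicate 3 is therefore also given alone where a result turns on it. *Jag2* itself had 80.7 to 115.7 normalized counts in WT and 42.4 to 78.8 in *Jag2sm* libraries, and its adjusted p was 0.166 by edgeR's quasi-likelihood test. Normalized counts are counts scaled to a common library size (CPM) after TMM scaling. The labels put WT and *Jag2sm* replicates of the same number into the same batch, without saying what the batch was, and *Jag2sm* replicate 4 was alone in batch 4.

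Of the 9 partners, 5 passed the filter on low counts and were tested among 9489 genes with edgeR. Of the 5, *Acsl1* fell and *Plin2* rose, and *Lpl*, *Cpt1a* and *Ppargc1a* did not pass the threshold of an adjusted p under 0.05. Over all tested genes 4.84% were called lower in *Jag2sm*, 1.42% higher and 6.26% in either direction. The 5 are too few to set a share against that background. Every *Jag2sm* library lay on one side of every WT library for 2 of the 5, the same *Acsl1* and *Plin2*, and for 22.5% of all genes tested. *Fabp3*, *Fabp4*, *Fabp5* and *Cpt1b* had too few counts to be tested. When *Fabp3* counts were summed with those of its near-identical copies, the sum also fell, but it passed the filter only with its WT libraries.

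**Figure D1:**
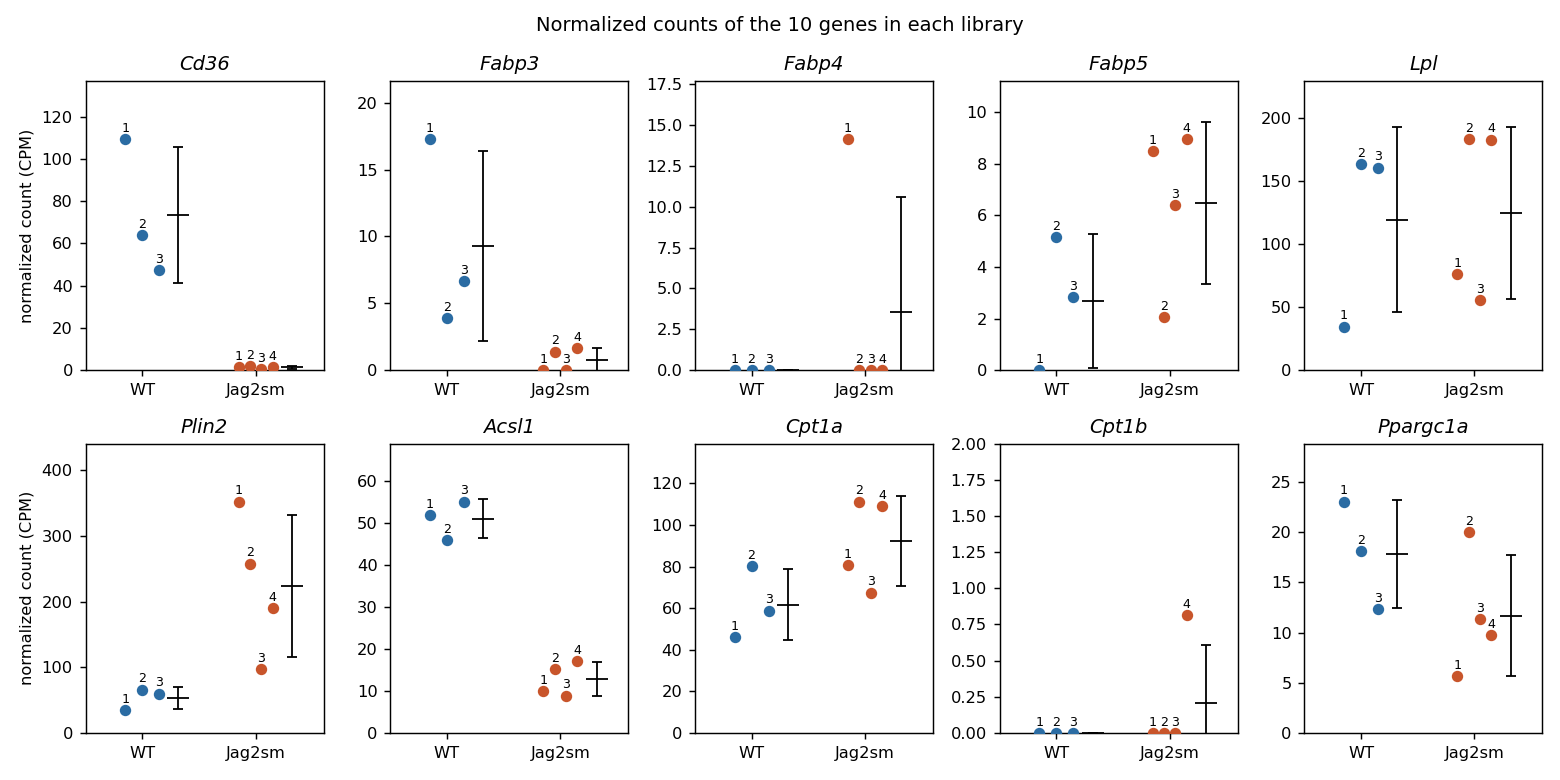
Normalized counts (CPM, linear axis from 0, a separate scale for each gene) of the 10 genes. Each point is a library with its replicate number (blue, WT; orange, Jag2sm), and the black line with bars is the mean and SD of the group (n = 3 WT, n = 4 Jag2sm; bars are cut at 0). Cd36, Fabp3 and Acsl1 are lower in all 4 Jag2sm libraries than in any WT library, Plin2 is higher in all 4, and the other genes overlap between the groups.

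Since *Fabp3* and *Fabp5* share their sequence with copies elsewhere in the genome, the stretches that carry this problem are shown first. A processed pseudogene is an intronless copy of an mRNA. *Fabp3* lies at chr4:130202388-130209259 on the plus strand, and *Fabp3-ps1*, its processed pseudogene, at chr10:86567851-86568252 on the minus strand, both in GRCm39. Over the annotated pseudogene 399 of 402 bases were identical to the *Fabp3* transcript, and the match went on beyond the annotation, covering 91.6% of the 823-base transcript at 99.1% identity. *Fabp5* lies at chr3:10077602-10081674 on the plus strand, and its copy *Gm6166* at chr9:57391246-57391654 on the plus strand, with 402 of 409 bases identical. The following 60-base stretches run across the junction of the first and second exon, with the 3 bases on each side of the junction in capitals. The pseudogene stretches are at chr10:86568150-86568209 on the minus strand and chr9:57391295-57391354 on the plus strand.
Fabp3 transcript: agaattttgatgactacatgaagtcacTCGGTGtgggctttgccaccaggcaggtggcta
Fabp3-ps1: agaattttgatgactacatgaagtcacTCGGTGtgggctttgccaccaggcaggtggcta
Fabp5 transcript: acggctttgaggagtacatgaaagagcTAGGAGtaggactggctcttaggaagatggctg
Gm6166: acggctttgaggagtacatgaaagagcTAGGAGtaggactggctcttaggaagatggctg
Each pair was identical in all 60 bases. A spliced read of this stretch from either gene matches its copy without a gap, and the parent gene only with an intron.

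*Cd36* lies at chr5:17986432-18094067 on the minus strand of GRCm39, and no other annotated gene overlaps its exons. In WT replicates 1, 2 and 3 it had 19, 99 and 50 counts, or 109.5, 64.0 and 47.4 CPM. The *Jag2sm* replicates 1, 2, 3 and 4 had 1, 3, 1 and 2 counts, or 1.41, 2.07, 0.493 and 1.63 CPM. The lowest WT library was thus far above the highest *Jag2sm* library. WT replicate 1, the smallest library of all, had the highest level, from 19 counts. The WT mean was 73.6 ± 32.2 CPM (SD, n = 3), and the *Jag2sm* mean was 1.40 ± 0.666 CPM (SD, n = 4). The fitted log2 fold change of *Cd36* was -5.56 with an SE of 0.447. With so few counts in *Jag2sm*, the log2 ratio of the pooled counts was -5.39. Its 95% exact binomial interval was -6.73 to -4.32 and covers counting error only. Because *Cd36* was chosen on these same counts, the fold change may be too large and the interval is no test. Within batches 1, 2 and 3 the log2 difference of *Cd36* was -5.15, -4.12 and -4.48. The next gene by p was *Cox8b*, a muscle subunit of cytochrome c oxidase, whose log2 fold change was -3.96.

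*Lpl* (chr8:69284603-69360100, plus strand), which encodes the lipase that frees fatty acids outside the cell, showed no difference beyond the spread between libraries. Its levels were 34.6, 162.9 and 160.3 CPM in WT and 76.4, 183.1, 55.2 and 182.6 CPM in *Jag2sm* replicates 1 to 4. Both groups held high and low libraries, and they overlapped over nearly their whole range. The log2 fold change of *Lpl* was -0.07 with an SE of 0.487 and an adjusted p of 0.973 by edgeR, so a difference smaller than this spread could not be seen. Its sign turned under several other settings.

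*Fabp3*, the heart and skeletal muscle fatty acid binding protein, had 3, 6 and 7 counts in the WT libraries and 0, 2, 0 and 2 in the *Jag2sm* libraries. These are 17.3, 3.88 and 6.64 CPM in WT and 0, 1.38, 0 and 1.63 CPM in *Jag2sm*. All *Jag2sm* libraries were below all WT libraries, but these were only 20 reads in all, and 38.5% of the exon bases of *Fabp3* overlap *Gm10570* or *Zcchc17* on the other strand. The log2 ratio of its pooled counts was -2.81, with an exact binomial interval of -4.85 to -1.17. The exact permutation test gave a two-sided p of 0.0286 for *Fabp3*, the smallest that 3 against 4 libraries can give. By the same permutation test p was 0.0286 for *Acsl1*, 0.0571 for *Plin2* and 0.114 for *Cpt1a*. It was 0.2 for *Ppargc1a* and for *Fabp5*, and 0.857 for *Lpl*. Without the filter the edgeR log2 fold change of *Fabp3* was -2.95 with an adjusted p of 0.0214. That fit gave smaller p-values at large, with 780 genes called lower and 468 higher, against 459 and 135 with the filter. For *Rgs5*, which was high mainly in 1 library, the adjusted p by edgeR went from 0.135 to 6.71e-23. The unfiltered p of *Fabp3* is therefore a weak guide.

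Most reads with the *Fabp3* sequence were counted on *Fabp3-ps1*. The pseudogene had 92.2, 52.4 and 56.0 CPM in WT and 0, 4.84, 0.985 and 4.89 CPM in *Jag2sm* libraries. It was called lower in *Jag2sm*, with a log2 fold change of -4.41, an SE of 0.506 and an adjusted p of 0.00224 by edgeR. The pseudogene passed the filter on low counts only with its WT libraries, the group where it is high. By profile it also lay close to *Cd36*, as described further on.

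Of the reads on *Fabp3* and its copies together, 10.3% were on *Fabp3*. The sum was 109.5, 56.2 and 63.6 CPM in WT and 1.41, 6.21, 0.985 and 7.34 CPM in *Jag2sm*. Again no *Jag2sm* library reached the lowest WT library. The log2 fold change of the sum was -4.10 with an SE of 0.497 and an adjusted p of 0.00265 by edgeR, a level 17.2-fold higher in WT. The sum passed the filter on low counts only with its WT libraries, so the group where it is high let it into the test. Within batches 1, 2 and 3 the log2 difference was -5.52, -2.99 and -5.02. The counts alone cannot tell transcripts of *Fabp3* from transcripts of *Fabp3-ps1*, and summing was chosen after the counts had been seen.

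**Figure D2:**
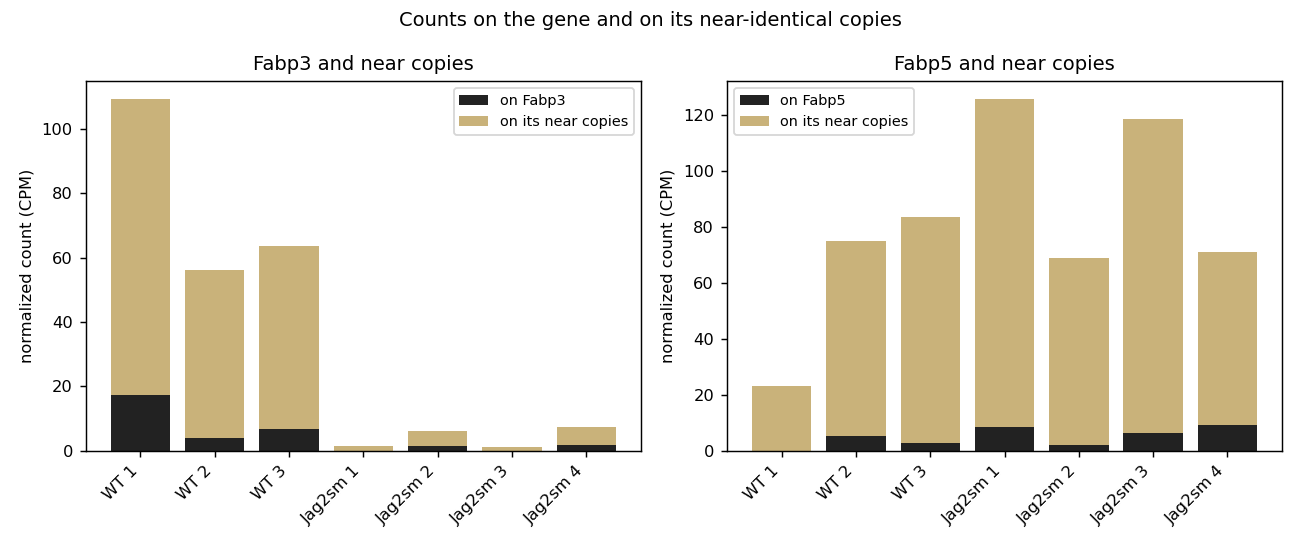
Normalized counts (CPM, bars from 0) on Fabp3 (left) and Fabp5 (right) in black and on their near-identical copies in tan, stacked, in each of the 7 libraries. The copies carry most of the counts in both panels, and the sum falls from 56.2 CPM or more in WT to 7.34 CPM or less in Jag2sm for Fabp3 but overlaps between the groups for Fabp5.

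*Fabp5*, the epidermal type binding protein that many cell types make, showed the other pattern. On the gene itself there were 0, 8 and 3 counts in WT and 6, 3, 13 and 11 in *Jag2sm*, and 6.07% of the reads on *Fabp5* and its copies were on *Fabp5*. Summed with the copies, *Fabp5* was at 23.1, 75.0 and 83.5 CPM in WT and 125.9, 69.0, 118.7 and 70.9 CPM in *Jag2sm*. The groups overlapped. The log2 fold change of the sum was 0.49 with an SE of 0.340 and an adjusted p of 0.476 by edgeR.

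*Fabp4* (chr3:10268785-10273737, minus strand), the adipocyte binding protein that endothelial cells and macrophages also make, had no count in WT, which at the pooled depth allows up to 0.999 CPM. In *Jag2sm* it had 10 counts, all in replicate 1, where they made 14.1 CPM. A value in 1 of 4 libraries is no difference between genotypes. In *Jag2sm* replicate 1, 11 endothelial genes summed to 14.1 CPM and 9 adipocyte genes to 4.24 CPM, both within the range of the WT libraries (5.69 to 17.3 and 5.17 to 11.5 CPM) or below it. The summed CPM of 10 leukocyte genes was 11.3 there, against 0 to 7.59 in WT. Of 7 genes of mural cells, the sum in *Jag2sm* replicate 1 was 687.2 CPM, against 59.8 to 89.8 CPM in all other libraries, and 644.8 CPM of it came from *Rgs5*. The rest of the list did not share this excess. In that library *Notch3* was at 41.0 CPM and *Cspg4* at 1.41 CPM, and *Pdgfrb*, *Kcnj8*, *Abcc9* and *Myh11* had no count. The part of other cells in the *Fabp4* reads was not tested.

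The makeup of the binding protein reads did not overlap between the genotypes. With the copies included, *Fabp3* took 82.6%, 42.9% and 43.2% of the reads on *Fabp3*, *Fabp4* and *Fabp5* in WT replicates 1, 2 and 3. The share of *Fabp3* was 1.00%, 8.26%, 0.823% and 9.38% in *Jag2sm* replicates 1 to 4. The lowest WT share, from 203 reads, had an exact binomial interval of 36.0% to 49.97%, and the highest *Jag2sm* share, from 96 reads, one of 4.38% to 17.1%. These intervals do not meet, although they cover counting error only. The wide gap depends on counting the copies with their parent genes. Without the copies the share of *Fabp3* was 100%, 42.9% and 70% in WT replicates 1 to 3. It was 0%, 40%, 0% and 15.4% in *Jag2sm* replicates 1 to 4. The nearest of these, 42.9% in WT and 40% in *Jag2sm*, came from 14 and 5 reads. The shares are of reads and were not divided by transcript length.

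*Acsl1* (chr8:46924063-46990145, plus strand), which encodes the long-chain acyl-CoA synthetase typical of muscle, heart and fat, was the tested partner that followed *Cd36*. Its WT libraries were close together at 51.9, 45.9 and 55.0 CPM. In *Jag2sm* replicates 1 to 4 *Acsl1* was at 9.90, 15.2, 8.87 and 17.1 CPM. The mean fell from 50.9 ± 4.63 CPM (SD, n = 3) to 12.8 ± 4.01 CPM (SD, n = 4), with no overlap. The log2 fold change was -1.98 with an SE of 0.285 and an adjusted p of 0.00513 by edgeR, a level 3.93-fold higher in WT. Within batches 1, 2 and 3 the log2 difference was -2.21, -1.49 and -2.42. *Acsl1* stayed called in all 14 other settings in which it was tested. In 7.59% of its exon bases it overlaps *Gm45244* on the other strand.

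None of the other tested synthetases of long-chain fatty acids was called in the fit without a block. *Acsl3* had a log2 fold change of -0.99 (adjusted p = 0.107, edgeR). With the replicate block *Acsl3* was called lower, with a log2 fold change of -1.34 (adjusted p = 0.0292, edgeR), as it was without a filter and without *Jag2sm* replicate 4 (adjusted p of 0.0427 and 0.0344). *Acsl4* had a log2 fold change of 0.11 (adjusted p = 0.913). *Acsl5* had a log2 fold change of 0.16 (adjusted p = 0.854). No test of the differences among these genes was made. *Acsl6* had 27 and 20 counts in WT and *Jag2sm* and was not tested.

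*Plin2* (chr4:86565912-86588459, minus strand), the coat protein found on lipid droplets of most cells, went the other way. It was at 34.6, 65.9 and 59.8 CPM in WT and at 352.1, 257.7, 96.6 and 189.9 CPM in *Jag2sm* replicates 1 to 4. Every *Jag2sm* library was above every WT library, but replicate 3 was much nearer to WT than the other 3. The means were 53.4 ± 16.6 CPM (SD, n = 3) and 224.1 ± 107.9 CPM (SD, n = 4). The log2 fold change of *Plin2* was 1.95 with an SE of 0.418 and an adjusted p of 0.0210 by edgeR, a rise of 3.86-fold.

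The 3 *Jag2sm* libraries with the highest *Plin2* were those with 46.0% or more unaligned reads. With only *Jag2sm* replicate 3, the library with few unaligned reads, set against WT, its log2 fold change was 0.77, a value from 1 library with no replicate check that was looked at after the data had been seen. *Acsl1* in the same comparison was at -2.47. Within batches 1, 2 and 3 the log2 difference of *Plin2* was 3.29, 1.94 and 0.68. The call was also lost without WT replicate 1, 2 or 3 or *Jag2sm* replicate 2, with adjusted p of 0.0558, 0.0674, 0.0885 and 0.0655 in that order, while the log2 fold change stayed between 1.80 and 2.13. The part of the unaligned reads in this rise was not tested.

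Of the other coat genes of lipid droplets, *Plin3* had 130 counts in WT and 181 in *Jag2sm* and a log2 fold change of -0.48 (adjusted p = 0.302, edgeR). *Plin1*, the adipocyte coat gene, had no count in any library, and *Plin5*, a coat gene of oxidative muscle, had 1 in all.

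*Cpt1a* (chr19:3371853-3437996, plus strand), the liver type of carnitine palmitoyltransferase 1, was at 46.1, 80.2 and 58.8 CPM in WT and 80.6, 111.3, 67.5 and 109.2 CPM in *Jag2sm*. Only WT replicate 2, at 80.2 CPM, and *Jag2sm* replicate 3, at 67.5 CPM, crossed. The log2 fold change of *Cpt1a* was 0.50 with an SE of 0.259 and an adjusted p of 0.324 by edgeR. *Cpt1b*, the muscle type, had no count in WT and 1 count in *Jag2sm*. This says little, because 68.5% of the exon bases of *Cpt1b* are shared with *Gm44502* on the same strand, and a read that overlaps 2 genes is set aside as ambiguous by the counting tool. *Gm44502* also had no count.

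*Ppargc1a* (chr5:51611592-51725068, minus strand) was at 23.1, 18.1 and 12.3 CPM in WT and 5.66, 20.0, 11.3 and 9.78 CPM in *Jag2sm*. *Jag2sm* replicate 2 was above 2 of the WT libraries. Its log2 fold change was -0.42 with an SE of 0.421 and an adjusted p of 0.638 by edgeR.

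**Figure D3:**
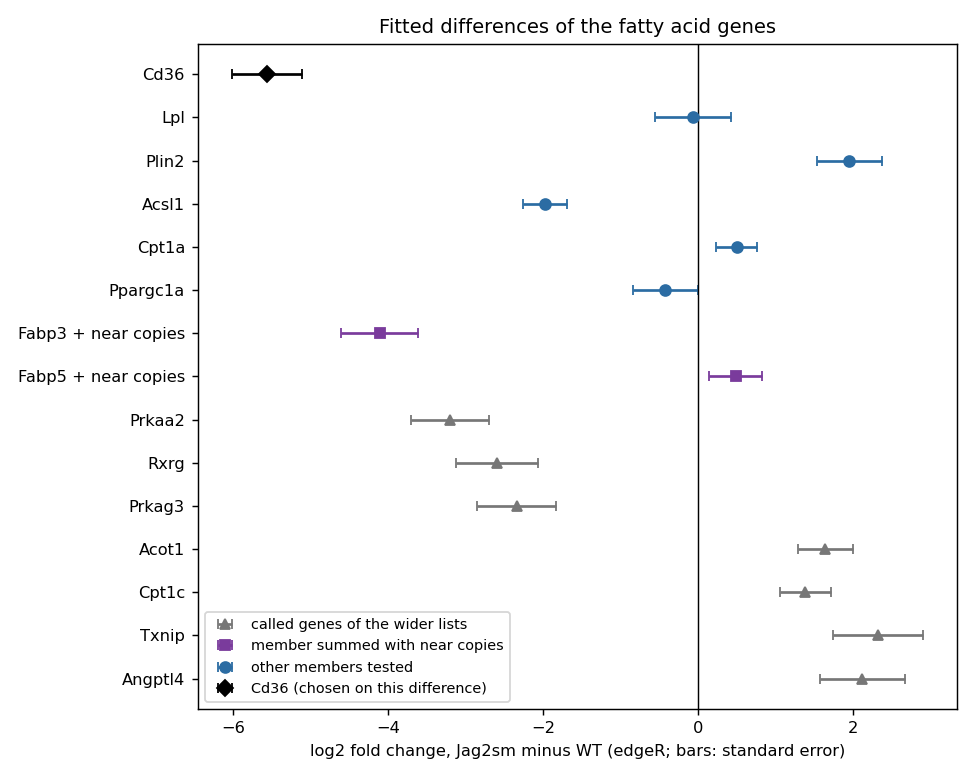
Log2 fold change of Jag2sm minus WT (horizontal axis) from the edgeR fit, with its standard error as a bar, for Cd36 and its 5 tested partners, the 2 binding protein genes summed with near copies, and the called genes of the wider fatty acid lists. Acsl1 (-1.98) and the Fabp3 sum (-4.10) lie on the side of Cd36 (-5.56), Plin2 (1.95) lies on the other, and Lpl, Cpt1a and Ppargc1a lie within 1 unit of 0.

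The wider pathway was read from 8 lists with 112 genes besides the 10. Of these, 79 were tested, 3 were called lower and 4 higher in *Jag2sm*, and their median log2 fold change was -0.01, against 0.05 over all tested genes. These are 3.80% lower and 5.06% higher, beside the 4.84% and 1.42% over all tested genes, and no test of the lists was made. The filter asks for enough counts in 3 libraries, whichever group they are in. The 3 genes called lower passed it only with their WT libraries. Among the 4 called higher, *Cpt1c* and *Txnip* passed it only with their *Jag2sm* libraries. These genes were thus let in by the group where they are high, under the filter used for all genes. None of the 12 tested genes of mitochondrial beta-oxidation was called by edgeR, and 4 had an unadjusted p under 0.05, all 4 with a lower level in *Jag2sm*, where 19.7% of all tested genes had such a p in either direction. DESeq2 called 1 of them lower, *Acadl*, and limma-voom called 0. *Acadl*, the long-chain acyl-CoA dehydrogenase, had a log2 fold change of -1.10 by edgeR (adjusted p = 0.055). Also among them *Acadm*, a medium-chain acyl-CoA dehydrogenase, had a log2 fold change of -0.84 (adjusted p = 0.0596, edgeR). *Hadha*, a subunit of the trifunctional protein, had a log2 fold change of -0.87 (adjusted p = 0.0704). Of 9 tested peroxisomal genes 0 were called by edgeR, DESeq2 or limma-voom, and 0 had an unadjusted p under 0.05.

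Among the 11 other tested genes of uptake and binding, edgeR, DESeq2 and limma-voom called 0, and 4 had an unadjusted p under 0.05 by edgeR, all 4 with a higher level in *Jag2sm*, again beside 19.7% of all tested genes. *Cav1*, a caveolar coat protein, had a log2 fold change of 1.28 (adjusted p = 0.0692, edgeR). *Slc27a1*, a fatty acid transport protein of muscle and fat, had a log2 fold change of 0.80 (adjusted p = 0.197). Of 14 tested genes of lipid droplets and lipolysis besides *Plin2*, the same tools called 0, and 3 had an unadjusted p under 0.05 by edgeR, a share close to that of all tested genes. *Dgat2*, an enzyme of triglyceride synthesis, had a log2 fold change of -0.93 (adjusted p = 0.0924). *G0s2*, an inhibitor of lipolysis, had a log2 fold change of 0.89 (adjusted p = 0.0948). *Pnpla2*, the lipase that starts the breakdown of stored triglyceride, had a log2 fold change of -1.39 (adjusted p = 0.120).

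The 3 genes called lower were all in the list of regulators, in which 15 genes were tested. *Prkaa2*, a catalytic subunit of AMP-activated kinase, was at 51.9, 20.7 and 24.7 CPM in WT and 4.24, 4.15, 0.986 and 3.26 CPM in *Jag2sm*. Its log2 fold change was -3.20 with an SE of 0.501 (adjusted p = 0.00615, edgeR). *Prkag3*, a regulatory subunit of that kinase found mainly in skeletal muscle, fell by 2.34 on the log2 scale (SE 0.510, adjusted p = 0.0223). *Rxrg*, a retinoid X receptor, fell by 2.59 (SE 0.528, adjusted p = 0.0165). *Ppard*, a PPAR found in most tissues, had a log2 fold change of 0.41 (adjusted p = 0.648), and *Ppara* had 6 reads in all.

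The 4 genes called higher were *Acot1*, *Cpt1c*, *Txnip* and *Angptl4*. *Acot1*, a cytosolic acyl-CoA thioesterase, was at 11.5, 17.5 and 15.2 CPM in WT and 53.7, 58.0, 27.1 and 62.0 CPM in *Jag2sm* (log2 fold change 1.64, SE 0.353, adjusted p = 0.0212, edgeR). *Cpt1c*, a form of carnitine palmitoyltransferase 1 best known from the brain, rose by 1.38 on the log2 scale (SE 0.332, adjusted p = 0.0337). *Txnip*, a thioredoxin-binding protein, rose by 2.32 on the log2 scale (SE 0.583, adjusted p = 0.0415), from 9 counts in WT, and overlaps *Gm15441* on the other strand in 29.3% of its exon bases. *Angptl4*, a secreted inhibitor of LPL, rose by 2.12 (SE 0.554, adjusted p = 0.0484). As with *Plin2*, *Acot1*, *Txnip* and *Angptl4* were lowest in replicate 3 among the *Jag2sm* libraries, at 27.1, 9.86 and 20.2 CPM. The *Angptl4* level of replicate 3 lay below that of WT replicate 1, at 23.1 CPM. With replicate 3 alone set against WT, without a replicate check, the log2 fold changes of *Acot1*, *Cpt1c*, *Txnip* and *Angptl4* were 0.78, 1.32, 1.59 and 0.52. The 4 calls were among the less firm ones: *Angptl4* was not called in 10 of its 15 other settings, *Cpt1c* in 8 of 14, *Txnip* in 7 of 14 and *Acot1* in 5 of 14.

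Genes were then ranked by how like their profile over the 7 libraries was to that of *Cd36*, as the root mean square difference of the log2 CPM after each gene's mean was taken off. The 5 nearest of the tested genes were *Myh4*, a fast myosin heavy chain (0.436), *Myoz2*, a Z-disc protein (0.553), *Casq1*, the calcium store protein of fast muscle (0.571), *Mef2c*, a muscle transcription factor (0.586), and *Hspb7*, a small heat shock protein of muscle (0.588). *Fabp3-ps1* ranked 7 with 0.599. *Acsl1* ranked 257, *Ppargc1a* 1297, *Lpl* 6951, *Cpt1a* 7091 and *Plin2* 9231. A gene with a fall of like size in the same libraries gets a small value by construction, and no test was made.

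Genes of differentiated muscle moved with *Cd36*. Of 12 such genes 10 were tested and all 10 were called lower in *Jag2sm*, beside 4.84% of all tested genes. The summed CPM of the 12 was 25860 to 42680 in WT and 1164 to 6870 in *Jag2sm* libraries. *Jag2sm* replicate 3 had the lowest sum and also the lowest levels of *Cd36*, *Acsl1* and the *Fabp3* sum, and WT replicate 1 had the highest sum and the highest levels of *Cd36* and the *Fabp3* sum. The order was not kept throughout. Among WT libraries *Acsl1* was highest in replicate 3, at 55.0 CPM, with 51.9 CPM in replicate 1. Among *Jag2sm* libraries, with 1 to 3 *Cd36* counts each, replicate 4 had the highest muscle sum but replicate 2 the highest *Cd36*, and among WT libraries replicate 2 had the lowest muscle sum but replicate 3 the lowest *Cd36*. RNA from fewer differentiated cells and less RNA per cell cannot be told apart in bulk libraries. The part of differentiation in the fall of *Cd36*, *Fabp3* and *Acsl1* was not tested.

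**Figure D4:**
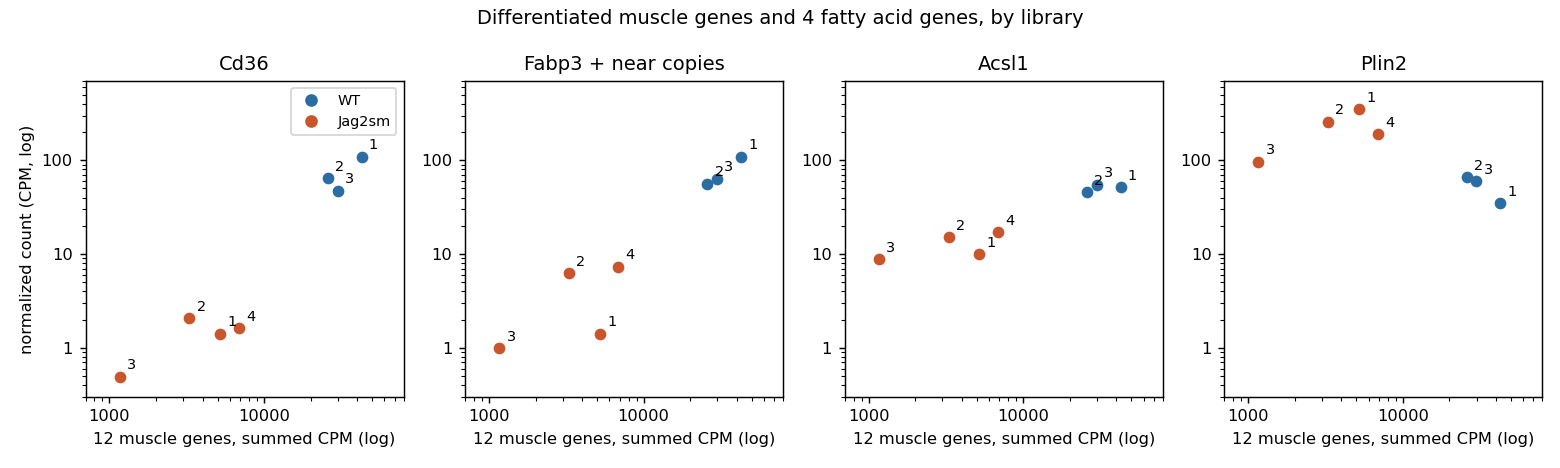
Normalized counts of Cd36, the Fabp3 sum, Acsl1 and Plin2 (vertical axis, CPM, log scale) against the summed CPM of 12 genes of differentiated muscle (horizontal axis, log scale) in each library (blue, WT; orange, Jag2sm; digits are replicates). WT libraries lie at 25860 or above and Jag2sm libraries at 6870 or below on the horizontal axis, with the first 3 genes low and Plin2 high in the Jag2sm cluster, where replicate 3 is lowest in all 4 panels.

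The groups of points form separate clusters, so no correlation was computed. Satellite cell and myoblast genes were present in every library, with a summed CPM over 10 genes of 5430 to 9183 in WT and 3606 to 4143 in *Jag2sm*. The sum was lower in every *Jag2sm* library than in any WT library, but *Des* and *Chrna1* made up most of it in each WT library. *Des* was at 1807 to 4600 CPM in WT and 706 to 1103 CPM in *Jag2sm*. *Chrna1* was at 1766 to 2946 CPM in WT and 1091 to 1287 CPM in *Jag2sm*. *Pax7*, *Myf5*, *Vcam1* and *Sdc4* were fitted higher in *Jag2sm* and the rest lower, and 1 of the 10 genes was called. This was *Des*, an intermediate filament gene that differentiated muscle also uses, with a log2 fold change of -1.63 (adjusted p = 0.0245, edgeR), and with the replicate block its adjusted p was 0.0597. *Chrna1*, an acetylcholine receptor subunit, had a log2 fold change of -0.90 (adjusted p = 0.0706). *Pax7*, a marker of MuSCs, had one of 0.80 (adjusted p = 0.174), and *Myod1*, a marker of myoblasts, one of -0.19 (adjusted p = 0.696).

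*Cd36* is also a gene of capillary endothelium, adipocytes and macrophages, so markers of these cells were set beside it. The 11 endothelial genes summed to 5.69 to 17.3 CPM in WT and 4.44 to 14.1 CPM in *Jag2sm*, and *Kdr*, *Tie1* and *Esam* were at 0 in all libraries. The 9 adipocyte genes summed to 5.17 to 11.5 CPM in WT and 2.45 to 4.24 CPM in *Jag2sm*, with *Plin1*, *Cidec*, *Retn*, *Lep* and *Adrb3* at 0. The 10 leukocyte genes summed to 0 to 7.59 CPM in WT and 2.46 to 11.3 CPM in *Jag2sm*, with *Adgre1*, *Lyz2*, *Ptprc* and *Tyrobp* at 0. A list of 7 genes of fibro-adipogenic progenitors of muscle summed to 0, 16.8 and 17.1 CPM in WT replicates 1 to 3. In *Jag2sm* replicates 1 to 4 that sum was 29.7, 44.9, 6.90 and 31.8 CPM. Most of these reads were on *Cd34* (31 in WT, 88 in *Jag2sm*) and *Ly6a* (6 and 43). The sums of endothelial, leukocyte and progenitor genes overlapped between the genotypes. The adipocyte sums did not overlap, and most of the WT reads were on *Pparg*, with 15 reads in WT and 7 in *Jag2sm*. The part of these cell types in the *Cd36* level was not tested.

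The promoter of *Plin2*, the partner that rose, is shown with its matches to a motif that bears on fatty acids. It runs from 250 bases before the start of the GENCODE canonical transcript to 50 bases after it, on the strand of the gene (chr4:86588410-86588709, minus strand, GRCm39). Capitals mark AGGTCA on either strand, a single hexamer of the PPAR and other nuclear receptor elements.
Plin2 promoter: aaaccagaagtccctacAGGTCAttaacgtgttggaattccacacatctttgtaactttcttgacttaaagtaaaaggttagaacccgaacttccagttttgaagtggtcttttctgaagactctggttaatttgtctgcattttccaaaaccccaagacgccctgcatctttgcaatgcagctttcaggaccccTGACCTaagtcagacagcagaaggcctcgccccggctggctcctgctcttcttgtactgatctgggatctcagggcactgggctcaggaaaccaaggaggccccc
*Plin2* held 2 of these hexamers, and 15.1% of 21770 protein-coding promoters of the same length held at least 1. *Acsl1*, the partner that fell, held no AGGTCA and no CANNTG, the E-box that MYOD and related factors bind, in this window. Of the 9 partners, 6 held an E-box, 4 an AGGTCA hexamer and 0 the DR1 motif, in which 2 hexamers stand 1 base apart. An E-box was in 70.6% of all promoters and the DR1 motif in 0.0459%. TGGGAA, the core of the RBPJ motif through which NOTCH acts, was in 1 of the 9, *Cpt1b*, and in 25.9% of all promoters. CAGCTG, an E-box that counts among the CANNTG matches, was in 3 of the 9 and in 14.9%. All motifs were searched on both strands, and a match is a run of letters and not a bound site.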

How the data were processed

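RNA was measured in 3 WT and 4 *Jag2sm* libraries. The authors made direct cDNA libraries, ran the pooled libraries on PromethION flow cells, aligned the reads to GRCm39 with minimap2 (2.17 in the submitters' processing notes) and counted them on genes with htseq. The deposited values are raw counts per gene, without normalization. The annotation release and strand setting of htseq are not given in the sources used here. A table of the authors' own comparison, with log2 fold changes and p-values, was not used. Long reads were counted without molecular identifiers, so intervals cover counting error only.

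Counts were tested in R 4.3.3 with edgeR 4.0.16 (filterByExpr with a minimum count of 10 and a minimum total of 15, TMM, glmQLFit and glmQLFTest, no covariates, Benjamini-Hochberg adjustment over 9489 genes), and a gene was called at an adjusted p under 0.05. Log2 CPM used a prior count of 2. The 5 summary lines of each file entered no test. Gene symbols and locations came from GENCODE release M39, where 56017 of 56748 identifiers and all 10 genes were found. Copies were sought with BLAST 2.17.0 (at least 300 bases at 80% identity). Permutation tests were exact over 35 splits (Python 3.11.15), and intervals came from SciPy 1.17.1. On simulated counts with 200 genes of 9489 changed by 2 on the log2 scale, edgeR recovered 99.0% with 3.41% false calls. The changed genes were not drawn from the lowest mean levels, and every gene had the same dispersion. The recovery therefore does not carry over to genes with few counts.

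The batch in the labels equals the replicate number. Deviations from the group means correlated between same-numbered libraries at 0.074, 0.0144 and 0.0539, and the block was fitted as an alternative. Other alternatives were DESeq2 1.42.0, limma-voom (limma 3.58.1), DESeq2 size factors, other filters, thinning, and leaving out libraries. Named genes were the 10, *Jag2*, the gene next to *Cd36* by p, up to 3 called genes a list and direction, the 5 genes most like *Cd36* and the leading markers. Others (*Acsl3* to *Acsl6*, *Plin1*, *Plin3*, *Plin5*, *Acadl*, *Acadm*, *Hadha*, *Cav1*, *Slc27a1*, *Pnpla2*, *Dgat2*, *G0s2*, *Ppard*, *Ppara* and the near copies) were named after their values were seen. The members and lists were chosen with earlier results of these data known. One promoter sequence is not reported here.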

Additional observations from a re-analysis of the deposited data

Results flagged for a closer look

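Of 25 genes examined in the *Jag2sm* group, 2 had 1 library far from the others by Dixon's test. A gene with reads in only 1 library of the group, as both had, is always flagged by this rule. The usual rate of about 1 in 20 groups flagged by chance does not apply to them, and the flags add nothing to the counts. *Fabp4* was at 14.14 CPM in *Jag2sm* replicate 1 and had no count in the other 6 libraries. *Cpt1b* was at 0.8152 CPM, a single count, in *Jag2sm* replicate 4 and had no count elsewhere.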

How the results depend on the processing

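*Acsl1* was lower in *Jag2sm* in all 14 other settings that tested it, with a log2 fold change of -2.47 to -1.79 and a largest adjusted p of 0.0270. *Fabp3-ps1*, which passed the main filter only with its WT libraries, stayed called in all 13 that tested it. *Plin2* stayed above 0 in 15 settings but was not called in 5 of them. The *Lpl* value turned from -0.07 to 0.0381 with DESeq2 and 0.0938 with thinned counts, and ranged from -0.386 to 0.185 with 1 library left out, above 0 without WT replicate 2 or 3 or *Jag2sm* replicate 1 or 3. Genes called higher numbered 206 with DESeq2, with 6 genes of the lists called lower. limma-voom called 1 list gene higher. Without a filter there were 780 lower and 468 higher genes, 10 and 7 of them in the lists. With at least 10 counts in every library, 231 genes were called lower and 43 higher, and 0 partners and 0 list genes, since fewer genes were tested. Thinned to the smallest library, 198 were lower and 57 higher, with 1 partner, *Plin2*, and 0 list genes lower and 1 higher. With only *Jag2sm* replicate 3, chosen after seeing the data and assumed to vary like WT, 184 were lower and 37 higher, with 1 partner, *Acsl1*, and 0 list genes higher. Leaving out 1 library at a time gave 221 to 466 lower and 20 to 220 higher genes, 1 to 2 partners, and 1 to 5 and 0 to 4 list genes lower and higher. The lowest counts came without WT replicate 3 (20 higher) and without *Jag2sm* replicate 2 (221 lower). The cause of these shifts was not tested except where fewer genes or libraries entered. With the replicate block, 448 genes were lower and 117 higher and 2 partners were called. Pairing ended the call of *Cpt1c* (log2 fold change 1.48, adjusted p = 0.0782, edgeR) and of *Des* and added *Acsl3*, with no other call of a named gene changed. WT replicate 1 limits low genes, as 3 counts there make 16.0 CPM.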
